A study of Macaca fascicularis with 86 samples.

Results

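Of the 86 laser-captured regions in the series, 50 came from the 2 crab-eating macaque embryos at embryonic day 18 (E18), and these regions were sorted by how strongly they carried the RNA of a fibrillar matrix. For each region a matrix level m was taken as the mean log2(TPM + 1) of 6 genes of loose connective tissue, COL1A1, COL1A2, COL3A1, POSTN, LUM and DCN (TPM is a level scaled for transcript length and library size). Regions chosen by m of at least 5 are called mesenchyme-rich here (16 regions, 4 in embryo 1 and 12 in embryo 2). Those with m under 3.5 are called low-matrix (32 regions, 9 and 23), and 2 regions of embryo 1 between the thresholds were left out. The 6 genes made the classes and are not findings.

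Gastrulation turns the epiblast, a pluripotent epithelium, into germ layers through the primitive streak. In primates the disc-shaped epiblast is roofed by the amnion, a thin squamous epithelium whose cells express ISL1, GABRP and TFAP2A and which sends BMP signals, and is surrounded by extraembryonic mesenchyme, a loose tissue that secretes collagen, lines the amnion and yolk sac and forms the connecting stalk and the first vessels. Amnion and mesenchyme lie directly against each other, so a captured patch can hold both.

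Both classes are regions of E18 crab-eating macaque embryos for which the labels name no allele, strain, treatment or sex, and each sample is given by stage, embryo, section and sector. Embryos were frozen, cut in series and dissected by laser, and each region held 5 to 50 cells by the series' design text, from which polyadenylated RNA was sequenced (Geo-seq). The labels name no germ layer, do not say where the numbering of sections or sectors begins, and do not say how the sectors were drawn. The classes were made from values in the same libraries that were then tested, so each test below shows how a gene followed the 6 matrix genes and gives no independent proof of a tissue. SE and p-values take regions from 1 embryo as independent once the embryo block is fitted, and since there were 2 embryos they are too small as statements about embryos. In captured tissue, fewer cells of a type and less RNA per cell cannot be told apart.

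The level m ran from 5.51 to 9.42 in the mesenchyme-rich regions (median 7.29) and from 0.883 to 3.29 in the low-matrix regions (median 1.67). The regions nearest the thresholds were embryo 2 section 6 sector 7 (5.51) and embryo 1 section 3 sector 5 (5.78) on the inside of the upper threshold, and embryo 1 section 4 sector 1 (3.29) and section 2 sector 3 (2.57) under the lower one. The 2 regions left out had 4.73 (section 2 sector 1) and 4.93 (section 3 sector 4). The classes did not differ much in library measures: a median of 12064 genes reached 1 TPM in mesenchyme-rich and 11891.5 in low-matrix regions, and the mitochondrially encoded genes took a median of 24.1% and 24.5% of the summed TPM. No columns of the table were identical, and the highest correlation between any pair was 0.961.

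**Figure D1:**
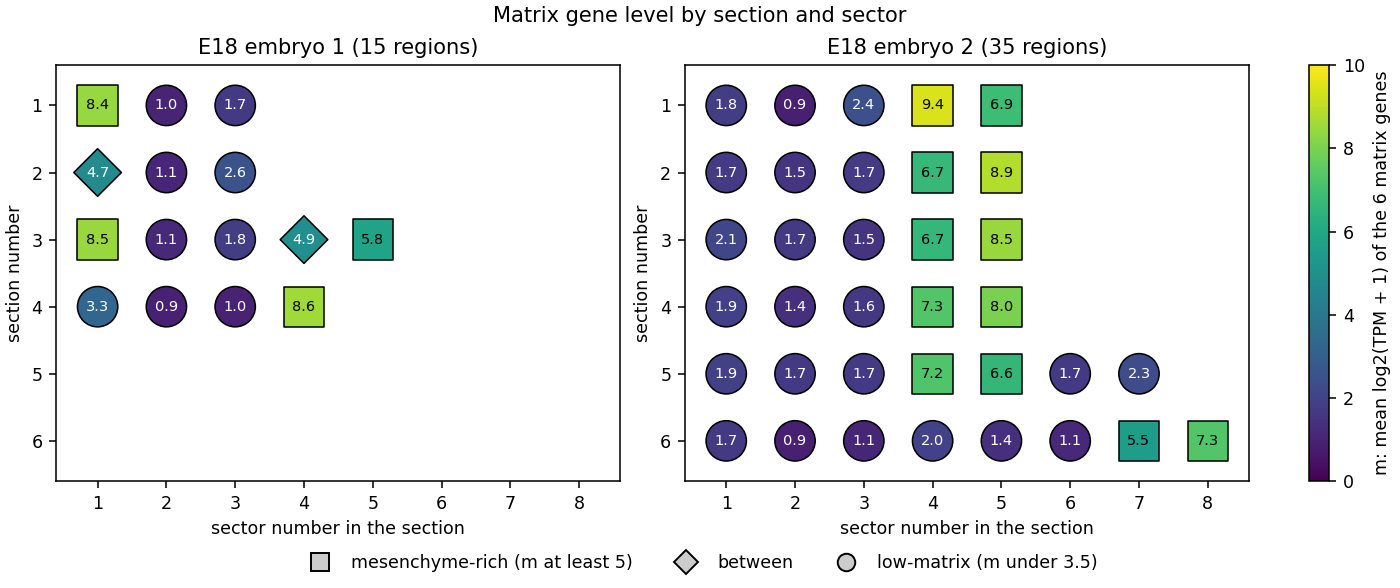
Each symbol is 1 E18 region placed by its sector number (x axis) and section number (y axis), coloured and labelled by m, the mean log2(TPM + 1) of the 6 matrix genes; squares are mesenchyme-rich, circles low-matrix and diamonds between. In embryo 2 each of the 6 sections holds 2 neighbouring mesenchyme-rich sectors, whereas in embryo 1 the 4 such regions lie at sector 1, 4 or 5.

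Where the regions lay is independent of the rule. In embryo 2 each of the 6 sections held exactly 2 mesenchyme-rich regions, and they were always neighbours: sectors 4 and 5 in sections 1 to 5, and sectors 7 and 8 in section 6. In embryo 1 they were sector 1 of section 1, sectors 1 and 5 of section 3 and sector 4 of section 4, as the map of m by section and sector shows. With the sector number scaled from 0 to 1 within its section, mesenchyme-rich regions averaged 0.751 and low-matrix regions 0.382, a difference within embryos of 0.36 (two-sided permutation test of classes within embryos, adjusted p = 0.00164 over 2 positions). That difference came from embryo 2 (0.51, permutation adjusted p = 4e-05), and embryo 1 alone gave -0.028 (exact permutation p = 0.983). All 4 regions of embryo 1 lay at the first or last sector of their section. A difference of means cannot show such a pattern, because the ends cancel. The permutation moved classes freely among the regions of an embryo, without regard to section. Neighbouring sectors and serial sections may cut the same tissue, so these p-values are too small as statements about separate structures. The section number, scaled within its embryo, averaged 0.521 and 0.581 (difference -0.059, permutation p = 0.613).

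Much of the transcriptome followed the matrix genes. Of 16244 genes tested with limma on log2(TPM + 1), with embryo as a block and p-values adjusted over all genes, 2167 were higher in mesenchyme-rich regions (13.3%) and 3104 were lower (19.1%), 5271 in all (32.4%), at an adjusted p under 0.05. The median difference over all genes was -0.06 on the log2 scale. Counts of called genes in the lists below are to be read beside these shares of all genes. Without the 6 mesenchyme-rich regions in which mitochondrial genes took over 40% of the TPM, a set made after seeing the data, 2411 genes were higher and 1598 lower, so that the share of higher genes among the called went from 41.1% to 60.1%. Low-matrix regions above 40%, up to 48.2%, stayed in that fit, so the classes then differed in mitochondrial share. With that share as a covariate on all regions, also added after seeing the data, 2448 genes were higher and 3341 lower (42.3% of the called higher). With embryo means in place of regions, 1180 were higher and 1341 lower.

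The 15 largest rises included secreted, membrane and regulatory genes. IGFBP3, a secreted binding protein for insulin-like growth factors that is also in the amnion list, ranged from 265 to 4440 TPM in mesenchyme-rich regions (median 934) and from 3.58 to 289 TPM in low-matrix regions (median 13.03). It had the largest difference of any gene named here, 5.98 ± 0.32 (log2, SE; adjusted p = 3.04e-21), and 14 of the 16 mesenchyme-rich regions exceeded every low-matrix region. PMP22, a membrane protein best known from myelin, had 24.6 to 537 TPM (median 238) against 0 to 23.1 TPM (median 3.06). Its classes did not overlap, and the difference was 5.67 ± 0.35. Also among the 15 largest were TGFBI (5.13 ± 0.34), a matrix protein induced by TGF-beta, EPAS1 (4.59 ± 0.30), a hypoxia-inducible transcription factor of vessels, and SPNS2 (4.93 ± 0.30), a transporter of sphingosine-1-phosphate. Others of the 15, outside the lists described below, were SULT1C4, a sulfotransferase (5.16 ± 0.31), CT55, a cancer/testis gene (4.46 ± 0.30), SLC47A1, a cation transporter (4.43 ± 0.28), and MIR675 (4.89 ± 0.58), a microRNA gene within a longer non-coding transcript, from whose reads the table cannot separate it.

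A complete separation of the classes was rare. Of all genes tested, 15 were higher in each of the 16 mesenchyme-rich regions than in every low-matrix region (0.0923%), and 0 were lower without overlap (0.0%). Besides PMP22, EPAS1, COL6A1 and COL5A2 these were CAPN2, COLEC10, EDNRA, FAM114A1, GRHL1, NEDD9, PCOLCE, SH3BP5, SLC39A2, TPM1 and TSHZ1, of which those not reached by the rule for named genes were singled out after their values were seen. TPM1, a tropomyosin of stress fibres, had 249 to 3116 TPM (median 1364) against 33.3 to 197 TPM (median 103), with a difference of 3.93 ± 0.22. GRHL1, a transcription factor of surface epithelia, was also in this set, with 10.4 to 71.2 TPM against 0.389 to 9.72 TPM.

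Collagens beyond the rule genes mostly rose. Of 15 other fibrillar and associated collagens tested, 10 were higher and 3 lower, with a median difference of 1.52. COL6A1, a chain of the beaded microfilaments around cells, had 11.4 to 563 TPM (median 84.2) in mesenchyme-rich and 0.0927 to 10.3 TPM (median 2.62) in low-matrix regions, a difference of 4.81 ± 0.30. COL6A3 rose by 4.87 ± 0.26, COL5A2, which regulates the width of collagen I fibrils, by 4.56 ± 0.25, and COL21A1, which associates with fibrils, by 4.40 ± 0.27. The 3 lower were COL26A1 (-1.86 ± 0.22), COL9A1 (-1.83 ± 0.34) and COL5A3 (-0.86 ± 0.18), so the family did not move as one.

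Genes that process collagen had a smaller median difference. Of 19 genes tested, 9 were higher and 0 lower, with a median of 0.51. PCOLCE, which enhances the cleavage of procollagen, had 42.1 to 351 TPM (median 106) against 1.49 to 24.8 TPM (median 11.6), and its classes did not overlap (3.51 ± 0.23). LOX, which cross-links collagen (1.51 ± 0.25), PLOD2, which hydroxylates its lysines (1.51 ± 0.30), and ADAMTS2, which trims its amino end (1.51 ± 0.21), rose less, and the prolyl hydroxylases P4HA1, P4HA2 and P4HA3 were not called.

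Basement membrane, other matrix proteins and proteases gave the same direction. Of 14 basement membrane genes, 10 were higher and 0 lower (median 1.45), led by the linker nidogen-2: NID2 had 23.2 to 417 TPM (median 74.9) against 0.588 to 31.1 TPM (median 2.29), and rose by 4.36 ± 0.29. Among 27 proteoglycans and matricellular proteins, 11 were higher and 2 lower (median 0.57). SPARC, a collagen-binding glycoprotein, had 181 to 1700 TPM (median 403) against 20.95 to 197 TPM (median 53.2) and rose by 3.04 ± 0.23, and HAPLN1, which links hyaluronan to proteoglycans, rose by 3.10 ± 0.42. THBS2 was lower (-1.63 ± 0.25). Of 15 matrix proteases and inhibitors 8 were higher and 1 lower (median 1.00). TIMP1, an inhibitor of matrix metalloproteinases, rose by 3.15 ± 0.29, ADAMTS1 by 3.06 ± 0.33, and SERPINE2 was lower (-2.05 ± 0.29).

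**Figure D2:**
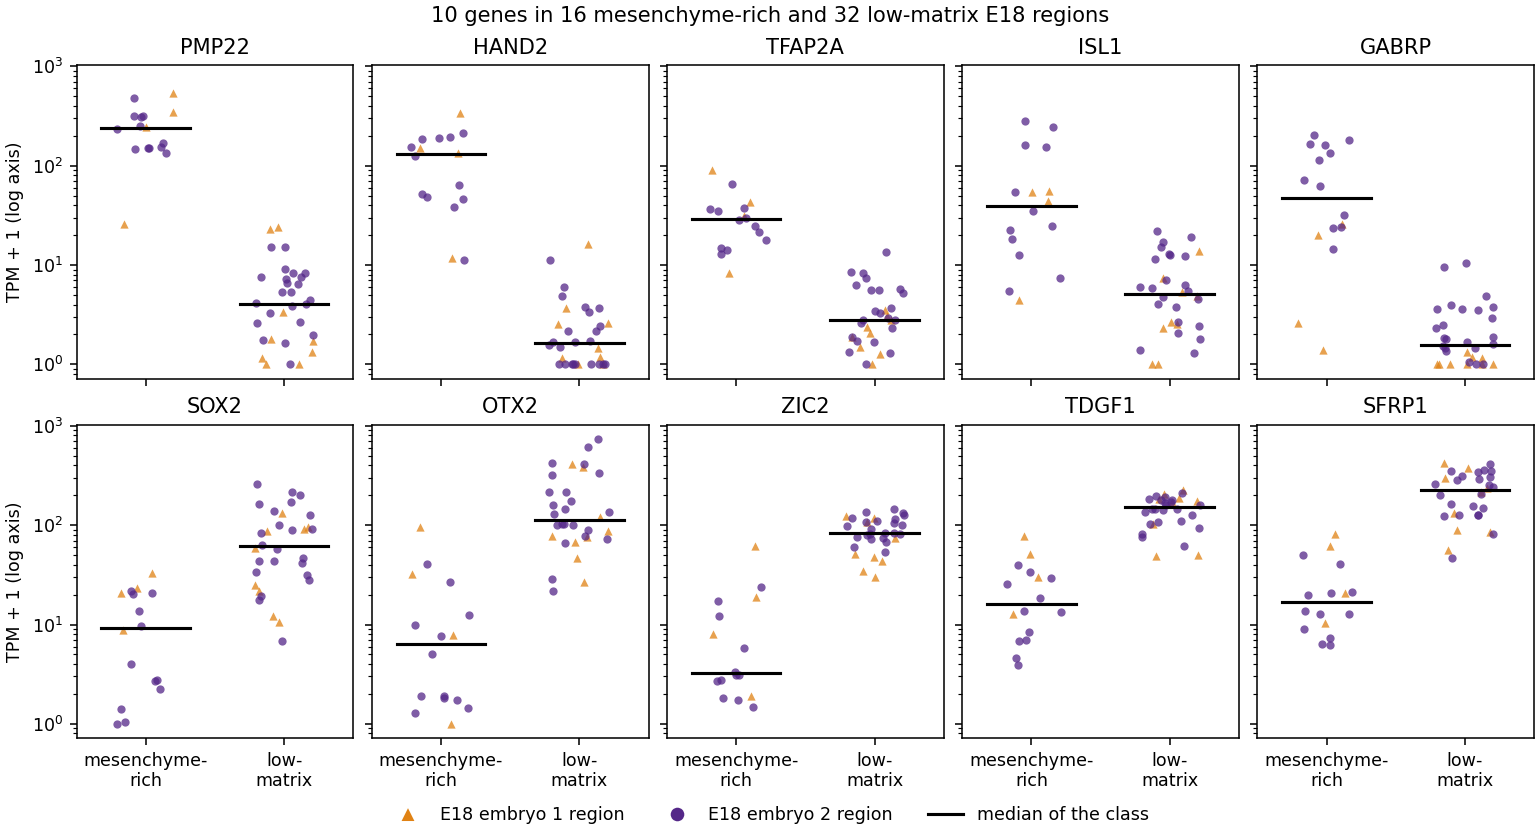
TPM + 1 on a log axis (y) of 10 genes in the mesenchyme-rich and low-matrix E18 regions (x), 1 point per region, triangles for embryo 1 and circles for embryo 2, with bars at class medians. PMP22 separates the classes completely, whereas ISL1, GABRP and SOX2 overlap between them.

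Transcription factors of lateral and extraembryonic mesoderm rose as a group: 24 of 29 tested were higher and 1 was lower, with a median of 1.90. HAND2, a factor of heart, limb and extraembryonic mesoderm, had 10.3 to 338 TPM (median 130) in mesenchyme-rich and 0 to 15.1 TPM (median 0.620) in low-matrix regions. It rose by 5.45 ± 0.36 (adjusted p = 5.52e-18), and 14 of 16 mesenchyme-rich regions lay above every low-matrix region. PITX1, a hindlimb factor (4.02 ± 0.49), MEIS1, a partner of HOX proteins (3.97 ± 0.35), HAND1 (3.47 ± 0.49), NR2F2 (3.08 ± 0.29) and TBX20 (2.92 ± 0.36) also rose. The exception was FOXC1, a paraxial mesoderm factor (-1.17 ± 0.31). GATA6 and ALDH1A2 did not pass (0.18 ± 0.48 and -0.19 ± 0.45), and both had opposite signs in the 2 embryos: GATA6 was 1.65 in embryo 1 and -0.34 in embryo 2, and ALDH1A2, a retinoic acid synthase, 1.63 and -0.83.

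Markers of the amnion rose in the same regions as the mesenchymal genes, so the label of mesenchyme and amnion could not be split by m. Of 21 amnion genes tested, 18 were higher and 0 lower, with a median of 2.03. ISL1, a LIM homeobox factor of amnion and of several mesoderm types, had 3.47 to 279 TPM (median 38.4) against 0 to 20.7 TPM (median 4.10). It rose by 2.88 ± 0.43 (adjusted p = 3.83e-07), and 11 of 16 mesenchyme-rich regions exceeded every low-matrix region. GABRP, a GABA receptor subunit found in amnion epithelium, had 0.391 to 201 TPM (median 45.9) against 0 to 9.52 TPM (median 0.581) and rose by 4.31 ± 0.35. TFAP2A, an AP-2 factor of surface ectoderm, amnion and trophoblast, had 7.27 to 89.1 TPM (median 27.8) against 0 to 12.5 TPM (median 1.80) and rose by 3.16 ± 0.28. WNT6 (3.24 ± 0.26), HEY1 (4.15 ± 0.29) and GATA3 (2.46 ± 0.50) rose as well, whereas KRT7, an epithelial keratin, did not pass (0.12 ± 0.38). VTCN1, an amnion surface protein, rose by 1.59 ± 0.43, but its difference was -0.01 in embryo 1 and 2.15 in embryo 2. It did not pass without the mesenchyme-rich regions of high mitochondrial share (limma adjusted p = 0.18).

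Mesenchymal and epithelial adhesion genes did not simply trade places. VIM, the mesenchymal intermediate filament, had 203 to 1065 TPM (median 516) against 7.59 to 279 TPM (median 55.1) and rose by 3.23 ± 0.37, together with SNAI2 (3.04 ± 0.37), ZEB2 (2.87 ± 0.35) and ZEB1 (2.18 ± 0.20), repressors of E-cadherin. In this list 9 of 14 were higher and 1 lower (median 1.59). The lower one was CDH2, N-cadherin, at -1.88 ± 0.54. That call was not reached without the mesenchyme-rich regions of high mitochondrial share (limma adjusted p = 0.34). E-cadherin, CDH1, had 2.44 to 30.3 TPM (median 10.9) against 0 to 41.7 TPM (median 11.9) and did not pass (0.17 ± 0.32). Of 15 epithelial adhesion genes 3 were higher, CLDN4, ITGB4 and RAB25, and 4 lower, among them the splicing regulator ESRP1 (-1.38 ± 0.18). Of all genes 13.3% were higher and 19.1% lower. Contractile genes rose in 8 of 14 cases and fell in 1 (median 1.04), with TAGLN, a smooth muscle actin-binding protein, at 2.93 ± 0.30 and ACTA2 at 1.91 ± 0.35.

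HOX genes and endothelial genes were nearly all on the higher side. Of 34 HOX genes tested, of 37 in the table, 30 were higher and 0 lower, with a median of 1.45, and their summed level was 54.9 to 990 TPM in mesenchyme-rich and 0.130 to 173 TPM in low-matrix regions. HOXA13, the most 5' gene of its cluster, had 0 to 108 TPM (median 18.3) against 0 to 6.24 TPM (median 0) and rose by 3.76 ± 0.39. HOXA9 (3.67 ± 0.38), HOXC8 (3.64 ± 0.30) and HOXA10 (3.17 ± 0.45) followed. Neighbouring HOX genes have antisense transcripts, and whether counting used strand is not given in the sources used here. Of 19 blood and endothelium genes 16 were higher and 0 lower (median 1.48): TEK, the angiopoietin receptor, had 4.18 to 185 TPM (median 34.5) against 0 to 16.8 TPM (median 1.48) and rose by 4.01 ± 0.32. CD34 rose by 3.48 ± 0.31, the VEGF receptor KDR by 1.43 ± 0.45 and PECAM1 by 2.30 ± 0.39, while the erythroid genes HBM and GATA1 did not pass (0.01 ± 0.17 and -0.41 ± 0.23) and had a median of 0 in both classes.

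**Figure D3:**
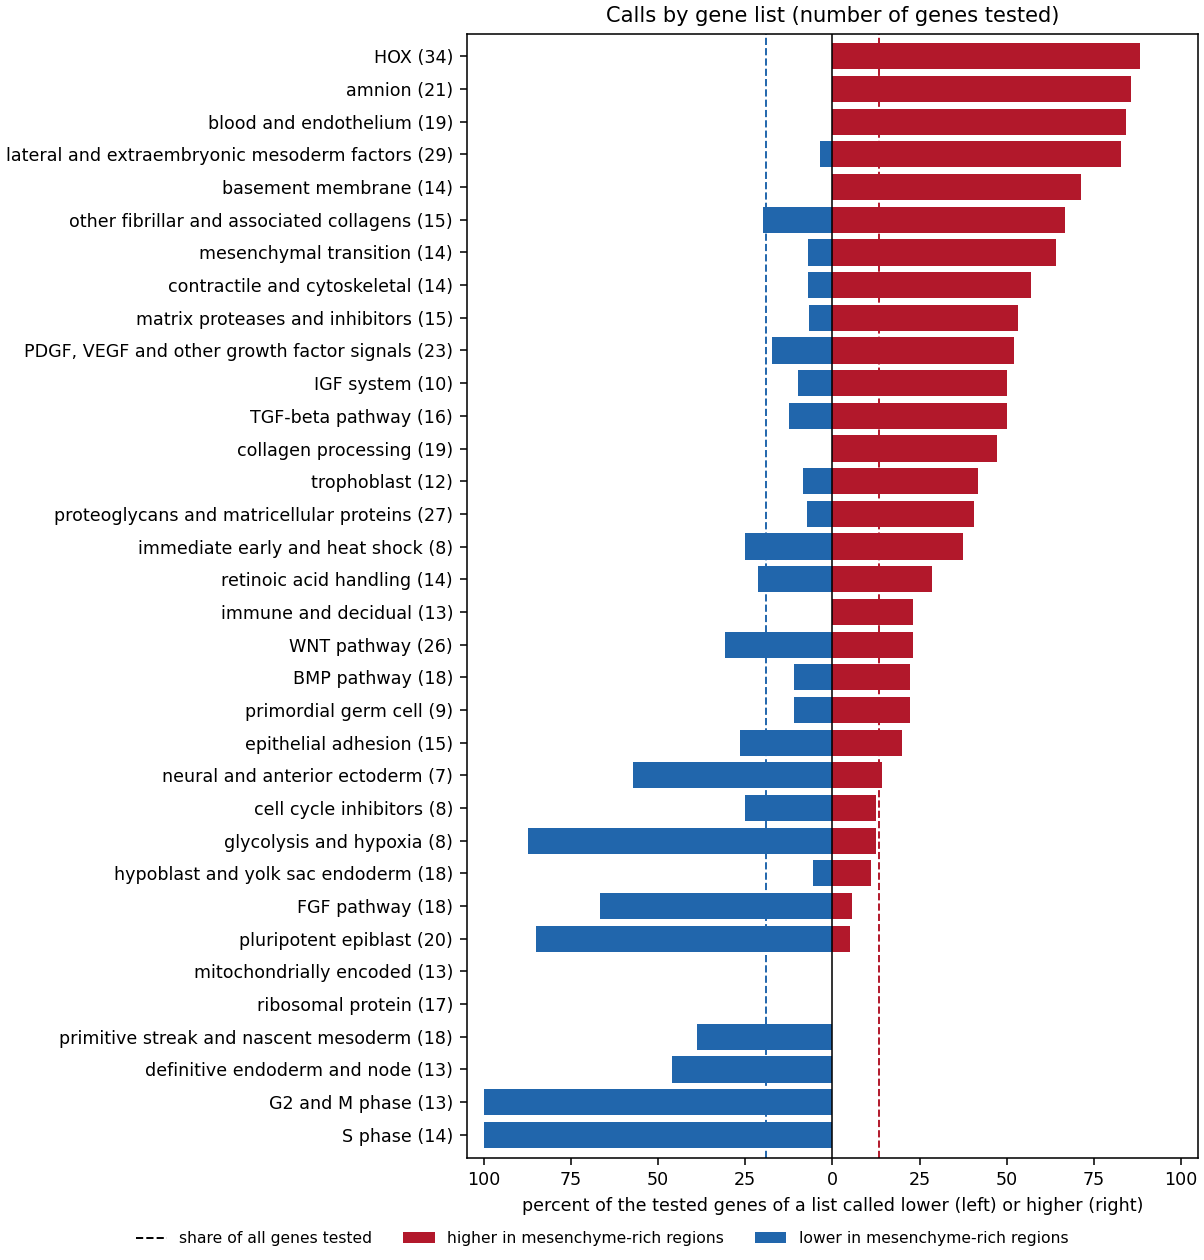
Percent of the tested genes of each list that were called higher (red, right of 0) or lower (blue, left of 0) in mesenchyme-rich regions, with the number of genes tested in parentheses and dashed lines at the shares of all genes tested (13.3% higher, 19.1% lower). HOX, amnion, endothelial and mesoderm lists stand at the top, and the 2 cell cycle lists are called lower throughout.

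Signals and receptors split by family. Among FGF pathway genes, 12 of 18 were lower and 1 higher (median -1.22). The ligand FGF17 had 0 to 101 TPM (median 3.82) in mesenchyme-rich and 0 to 2210 TPM (median 68.2) in low-matrix regions (-3.84 ± 0.85), and the downstream factor ETV4 and the feedback inhibitor SPRY2 were lower by similar amounts (-2.25 ± 0.26 and -2.22 ± 0.41). The higher member was the receptor FGFR2 (0.97 ± 0.22). In the IGF system 5 of 10 were higher and 1 lower (median 1.19). The growth factor IGF2 had 64.4 to 951 TPM (median 219) against 0.417 to 73.9 TPM (median 16.2) and rose by 3.77 ± 0.35, while IGFBP2 was lower (-1.40 ± 0.32).

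Of 23 PDGF, VEGF and other growth factor genes, 12 were higher and 4 lower (median 1.12). HGF had 0.970 to 226 TPM (median 75.2) against 0 to 11.2 TPM (median 0.983) and rose by 4.31 ± 0.37, and its receptor MET rose by 2.24 ± 0.22. PDGFRA rose by 1.54 ± 0.33 while its ligand PDGFA was lower (-1.88 ± 0.42). PDGFC, another PDGF gene of the list, was called higher, as PDGFRA was. The WNT list had calls in both directions, 6 higher and 8 lower of 26 (median 0.06), beside 13.3% higher and 19.1% lower of all genes. The ligand WNT2 (3.82 ± 0.35) and the agonist RSPO2 (3.53 ± 0.30) rose. The secreted antagonists SFRP1 (-3.44 ± 0.28) and SFRP2 (-2.97 ± 0.38) and the receptor FZD5 (-3.19 ± 0.50) fell. SFRP1 had 5.28 to 80.1 TPM (median 15.7) against 45.2 to 417 TPM (median 226).

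BMP and TGF-beta pathways moved partly. Of 18 BMP genes 4 were higher and 2 lower (median 0.16), beside 13.3% higher and 19.1% lower of all genes. BMP5 had 1.86 to 116 TPM (median 33.4) against 0 to 4.67 TPM (median 1.29) and rose by 3.72 ± 0.29, and ID2, a target of BMP signalling, rose by 1.72 ± 0.31. BMP4, the amnion's signal to the streak, had 36.7 to 535 TPM (median 191) against 10.1 to 590 TPM (median 88.4), with overlapping classes and a difference of 1.15 ± 0.34. Of 16 TGF-beta genes 8 were higher and 2 lower (median 0.53), with the ligand TGFB2 at 1.54 ± 0.26 and the activin antagonist FST lower (-2.21 ± 0.28). Of 14 genes of retinoic acid handling 4 were higher and 3 lower (median -0.05), beside the same shares of all genes. The degrading enzyme CYP26A1 had 0 to 148 TPM (median 4.93) against 17.3 to 315 TPM (median 120) and fell by 3.91 on the log2 scale (SE 0.38).

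Epiblast genes were on the other side. Of 20 pluripotent epiblast genes 17 were lower and 1 higher (PODXL, a surface sialomucin, 0.79 ± 0.23), with a median of -1.89. SOX2 had 0 to 31.7 TPM (median 8.24) in mesenchyme-rich and 5.78 to 256 TPM (median 60.5) in low-matrix regions. It fell by 3.08 (SE 0.43, adjusted p = 1.24e-07), all 16 mesenchyme-rich regions lay below the low-matrix median, and the classes overlapped. NANOG had 0.155 to 11.1 TPM (median 4.04) against 3.74 to 60.7 TPM (median 15.1) and fell by 1.92 (SE 0.32), and TDGF1, the NODAL co-receptor, had 2.88 to 77.0 TPM (median 15.2) against 47.7 to 227 TPM (median 151) and fell by 3.00 (SE 0.25). The DNA methyltransferase DNMT3B fell by 1.87 (SE 0.26).

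Anterior and streak regulators were among the 15 largest falls. OTX2, a homeobox factor of epiblast, anterior endoderm and forebrain, had 0 to 95.4 TPM (median 5.36) against 20.6 to 737 TPM (median 111) and fell by 4.44 (SE 0.46, adjusted p = 2.92e-11). Of the 16 mesenchyme-rich regions, 12 lay below every low-matrix region. ZIC2 fell by 3.92 (SE 0.31), with 15 of 16 regions below every low-matrix region. Of 7 neural and anterior ectoderm genes tested 4 were lower and 1 higher (median -0.90). SOX1 was listed at 0 in every region of both classes and SOX3 in every mesenchyme-rich region.

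Streak and endoderm genes varied strongly among low-matrix regions. LHX1 had 0 to 88.1 TPM (median 1.92) against 0 to 892 TPM (median 86.9) and fell by 4.04 (SE 0.71), EOMES fell by 3.40 (SE 0.51) and CER1, a secreted NODAL and BMP antagonist of anterior endoderm, by 3.06 (SE 0.84). FOXA2, a factor of node and endoderm, had 0 to 37.8 TPM (median 0.251) against 0 to 335 TPM (median 28.1) and fell by 3.34 (SE 0.65). Of 18 streak and nascent mesoderm genes 7 were lower and 0 higher (median -1.23), and of 13 definitive endoderm and node genes 6 were lower and 0 higher (median -1.13). TBXT, the T-box gene of the streak, did not pass (-1.06 ± 0.65), with 0 to 30.6 TPM (median 1.497) against 0 to 221 TPM (median 5.56). MIXL1 (-2.06 ± 0.78) and SOX17 (-1.53 ± 0.56) were called, and neither passed without the mesenchyme-rich regions of high mitochondrial share (adjusted p = 0.06 and 0.31). NODAL fell by 1.75 (SE 0.54), and VRTN by 2.99 (SE 0.36).

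Cell cycle genes were lower throughout. All 14 S phase genes and all 13 G2 and M phase genes tested were called lower, with medians of -1.28 and -1.04. MCM2, a subunit of the replicative helicase, had 2.76 to 53.0 TPM (median 18.3) in mesenchyme-rich and 19.9 to 83.3 TPM (median 49.4) in low-matrix regions, and 11 of 16 mesenchyme-rich regions lay below every low-matrix region (-1.58 ± 0.21). MKI67, the proliferation antigen, had 12.3 to 70.1 TPM (median 26.7) against 22.8 to 119 TPM (median 62.7) and fell by 1.16 (SE 0.18), so that its RNA was lower and still present in each mesenchyme-rich region. The inhibitor CDKN1A did not pass (0.42 ± 0.35). Of 8 glycolysis and hypoxia genes 7 were lower and 1 higher (median -0.78): BNIP3 fell by 1.53 (SE 0.23) and ENO1 by 0.97 (SE 0.19), while SLC2A1, the GLUT1 glucose transporter, had 536 to 3265 TPM (median 1048) against 117 to 619 TPM (median 345) and rose by 1.71 (SE 0.18). Of 8 cell cycle inhibitors 1 was higher and 2 lower (median -0.15), beside 13.3% higher and 19.1% lower of all genes. Of 8 immediate early and heat shock genes, which respond to handling and stress, 3 were higher and 2 lower (median 0.29), beside the same shares. FOS had 2.53 to 63.6 TPM (median 29.3) against 0 to 20.9 TPM (median 1.45) and rose by 3.29 ± 0.32. Ribosomal protein genes (17 tested) and mitochondrially encoded genes (13 tested) had 0 calls each in limma and medians of 0.06 and 0.06.

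Markers of other tissues were measured in both classes. The 18 hypoblast and yolk sac endoderm genes summed to 27.5 to 6110 TPM (median 63.2) in mesenchyme-rich and 6.63 to 3758 TPM (median 84.7) in low-matrix regions. Of these genes 2 were higher and 1 lower, beside 13.3% higher and 19.1% lower of all genes. APOA1, an apolipoprotein of yolk sac endoderm, exceeded 500 TPM in 4 regions of embryo 1: mesenchyme-rich section 3 sector 5 (4606 TPM), and low-matrix section 1 sector 3 (2043 TPM), section 4 sector 1 (561 TPM) and section 4 sector 2 (3436 TPM). For this reason the low-matrix class is not called disc here. Leaving these 4 regions out gave 2158 higher and 3072 lower genes. The 12 trophoblast genes summed to 189 to 2302 TPM (median 284) against 29.4 to 873 TPM (median 76.2), so that each of the 16 mesenchyme-rich regions lay above the low-matrix median. Of them 5 were higher, 2 of which are amnion genes too (TFAP2A and GATA3), and 1 was lower. The sum includes these amnion genes, and GATA3 alone was 76.5 to 280 TPM in the 12 mesenchyme-rich regions of embryo 2. CGA, the alpha chain of chorionic gonadotropin, had 0 to 1745 TPM (median 39.6) against 0 to 725 TPM (median 5.62), and among mesenchyme-rich regions it was 119 to 1745 TPM in the 4 of embryo 1 and 0 to 154 TPM in the 12 of embryo 2. The 13 immune and decidual genes summed to 11.2 to 772 TPM (median 30.6) against 3.01 to 92.6 TPM (median 19.4), with 3 higher and none at 0 in every region of either class. Of 9 primordial germ cell genes 2 were higher and 1 lower (median -0.07), beside 13.3% higher and 19.1% lower of all genes. The part of trophoblast, immune and decidual RNA in the differences above was not tested.

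**Figure D4:**
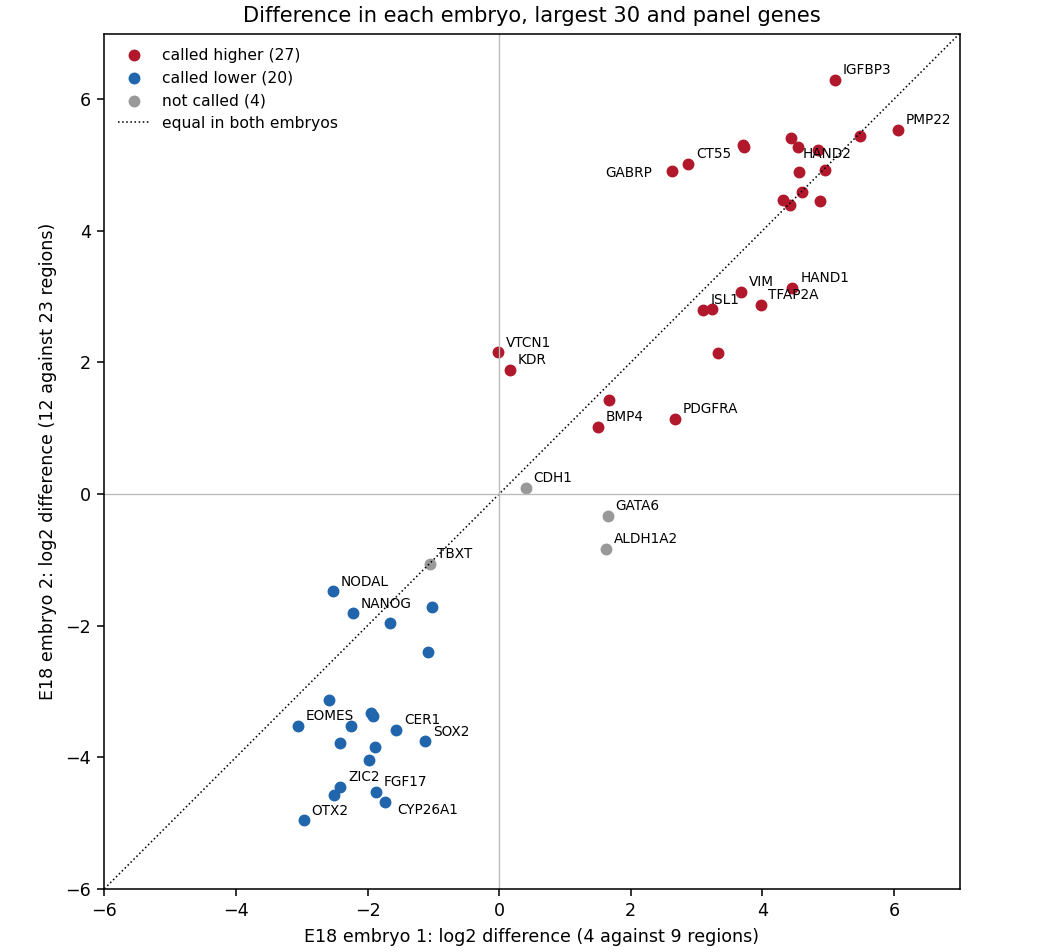
Log2 difference of mesenchyme-rich minus low-matrix regions in E18 embryo 1 (x axis) and embryo 2 (y axis), 1 point per gene, for the 30 genes of largest difference, which were required to share a sign, and the developmental panel; red points were called higher (27), blue lower (20) and grey not called (4), and the dotted line marks equal differences. Higher genes lie along the line, and most lower genes lie below it, with larger falls in embryo 2.

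Most differences had the same direction in both embryos. Embryo 2 alone, with 12 against 23 regions, had 4697 calls (28.9%), and embryo 1 alone, with 4 against 9 regions, had 337 (2.07%). Of 1945 genes called higher in embryo 2, 1602 were also higher in embryo 1 (82.4%, beside 57.4% of all genes with a positive difference in embryo 2), and 203 were called there. That is 10.4% of the genes called higher in embryo 2 and 81.5% of the 249 called higher in embryo 1. Of 2752 called lower, 2359 were also lower in embryo 1 (85.7%, beside 70.0% of all genes with a negative difference), and 59 were called in both, 67.0% of the 88 called lower in embryo 1.

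Several genes differed in size between embryos without passing the test of that difference. SOX2 fell by 1.12 in embryo 1 and by 3.76 in embryo 2 (interaction adjusted p = 0.2 in limma), GABRP rose by 2.62 and 4.91 (adjusted p = 0.156) and CYP26A1 fell by 1.73 and 4.68 (adjusted p = 0.0653). In embryo 1 GABRP was 0.391, 1.59, 19.1 and 24.7 TPM in the 4 mesenchyme-rich regions, and ISL1 was 43.0, 3.47, 53.6 and 54.5 TPM in the same order. HAND2 and EPAS1 had nearly equal differences in both embryos (5.49 and 5.44, and 4.60 and 4.58). The test of the difference between embryos called 60 of all genes (0.369%), and 2012 at an unadjusted p under 0.05, and none of the 174 genes that the naming rule reached was among the 60.

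Within embryo 2 the paired mesenchyme-rich regions of each section were unlike each other, a pattern noticed after the values were seen and described without a test. In each of the 6 sections 1 of the 2 regions had 41.0% to 48.8% of its TPM in mitochondrially encoded genes and the other 14.1% to 29.4%. The region with the lower share was sector 4 in section 1, sector 5 in sections 2 to 5 and sector 7 in section 6, so its side changed. Of 9313 genes with a mean of at least 5 TPM in these 12 regions, 3291 were higher in all 6 regions of lower share and 106 in all 6 of higher share. Since a large mitochondrial share lowers every other TPM, the same count was made with mitochondrial genes removed and the rest rescaled, which gave 639 and 678 genes.

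The regions of lower mitochondrial share carried mesoderm and HOX genes. PENK, which encodes the precursor of enkephalin peptides, had 111, 46.7, 556, 398, 964 and 423 TPM in sections 1 to 6, against 0, 1.78, 0, 10.5, 0 and 1.73 TPM in the neighbouring region. HOXA10 had 62.4 to 159 TPM against 0.375 to 10.6 TPM, and HOXA9 53.9 to 140 TPM against 2.24 to 5.54 TPM, without overlap. The limb and mesenchyme factors PRRX1 (13.4 to 35.2 TPM against 0 to 2.59 TPM) and TBX4 (7.30 to 24.4 TPM against 0 to 4.61 TPM), the chemokine receptor CXCR4 (25.97 to 272 TPM against 1.32 to 8.63 TPM) and HAND2 (125 to 210 TPM against 10.3 to 63.1 TPM) did the same. ISL1 was 33.9 to 279 TPM against 4.51 to 23.8 TPM, higher in 6 of 6 sections as deposited and in 5 of 6 after rescaling.

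The regions of higher mitochondrial share had higher levels of some epiblast, streak and anterior genes. EOMES was higher in 6 of 6 sections (16.5 to 114 TPM against 0.310 to 11.2 TPM), as were OTX2 (4.02 to 39.4 TPM against 0.274 to 0.929 TPM), L1TD1 (33.2 to 142 TPM against 3.12 to 46.6 TPM) and STMN2, a microtubule regulator of neurons (14.5 to 61.7 TPM against 0 to 2.75 TPM). GABRP and VTCN1 were higher there in 5 of 6 sections, GABRP at 30.5 to 201 TPM against 13.5 to 166 TPM. Amnion genes did not all take that side: BAMBI, TFAP2C and CDX2 were higher in the region of lower share in 6 of 6 sections, also after rescaling. SOX2 was higher in the region of higher share in 5 of 6 sections as deposited (1.27 to 20.95 TPM against 0 to 3.02 TPM). After rescaling, 10 of 30 lateral and extraembryonic mesoderm factors were higher in all 6 regions of lower share and 1 in all 6 of higher share, beside 639 and 678 of the 9313 genes. For 20 epiblast genes the counts were 1 (LIN28B) and 6, for 21 amnion genes 3 and 4, for 15 other collagens 1 and 6, and for 19 collagen processing genes 7 and 1. These list counts took every member, whereas the 9313 genes averaged at least 5 TPM, so the sets are not alike. The collagens counted for higher share include low ones, such as COL5A3 (at most 3.56 TPM in these regions) and COL12A1 (at most 3.32 TPM). PTPRC, the leukocyte antigen CD45, had 1.12 to 14.9 TPM in the regions of higher share and 0 to 0.8285 TPM in the others, and its part in these patterns was not tested.

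**Figure D5:**
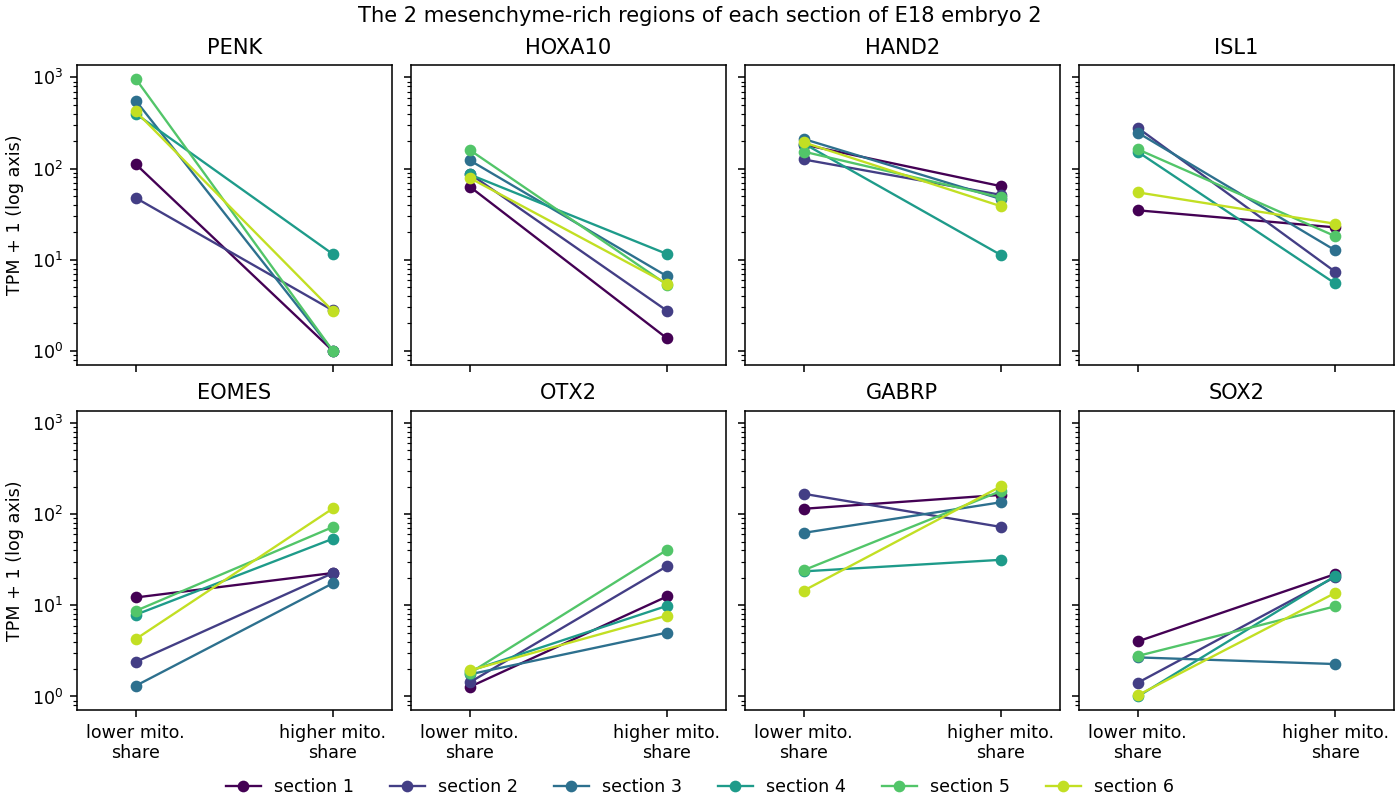
TPM + 1 on a log axis (y) of 8 genes in the 2 mesenchyme-rich regions of each section of E18 embryo 2 (x: the region of lower and of higher mitochondrial share), with 1 line per section. PENK, HOXA10, HAND2 and ISL1 are higher in the region of lower share in 6 of 6 sections, and EOMES and OTX2 in the other.

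The 8 regions of sections 6 and 7 of the E20 embryo, which the rule did not use, allowed the same split by m. With 4 mesenchyme-rich against 4 low-matrix regions and section as a block, limma called 26 genes (0.16%), 21 higher and 5 lower, and 2472 at an unadjusted p under 0.05. Of the 2167 genes higher at E18, 1885 were also higher at E20 (87.0%, beside 62.2% of all genes with a positive E18 difference), and of the 3104 lower, 2706 were also lower (87.2%, beside 68.5%). Of the 21 genes called higher at E20, 19 were called higher at E18 (90.5% of the former and 0.877% of the latter), and of the 5 called lower 1 was shared. HAND2 was 16.5, 44.8, 31.9 and 57.1 TPM in the mesenchyme-rich regions of E20 and 0 to 0.680 TPM in the others (4.76, adjusted p = 0.0244), and PMP22 was 156 to 696 TPM against 0.266 to 3.41 TPM (7.24, adjusted p = 0.0316).

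The 4 mesenchyme-rich regions at E20 differed among themselves in amnion and epiblast genes. Sector 4 of sections 6 and 7 had GABRP at 455 and 436 TPM with SOX2 at 7.25 and 7.85 TPM. Sector 3 of section 6 and sector 2 of section 7 had GABRP at 12.6 and 6.89 TPM with SOX2 at 69.1 and 81.4 TPM, levels within the range of the low-matrix regions (11.7 to 74.3 TPM) or just above it. The class difference of SOX2 did not pass there (-0.20, unadjusted p = 0.862 in limma). HOXA9 and HOXA10 were listed at 0 in both regions that were rich in SOX2. They were also low in sector 4 of sections 6 and 7 (HOXA9 4.90 and 0.479 TPM, HOXA10 4.13 and 1.47 TPM). Other HOX RNA was present in the regions rich in SOX2: HOXB2 had 10.5 and 16.8 TPM there, against 75.9 and 112 TPM in sector 4. In sections 1 to 5 of the E20 embryo 25 of 28 regions reached m of 5 and none was low-matrix, so no such comparison could be made there.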

How the data were processed

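The authors deposited 1 table of TPM values for 17023 genes and 86 regions, with 0 columns unmatched to a sample. Per the submitters' processing notes the tools were fastp, HISAT2 and StringTie, without versions. Genome build, annotation and strand setting were not given in the sources used here. No coordinates are printed. TPM keeps no counts, so depth is unknown and no counting interval or floor is given.

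The regions of embryos 1 and 2 at E18 were put into classes by the mean log2(TPM + 1) of 6 genes. From the deposited TPM, log2 values with a pseudocount of 1 were computed and fitted with limma 3.58.1 (trend) in R 4.3.3, for genes that reached 1 TPM in 5 or more E18 regions (16250 genes, 16244 without the 6), with embryo as a block and Benjamini-Hochberg adjustment at 0.05. The same fit was run for each embryo, for the difference between embryos (interaction) and, with section as a block, for E20 sections 6 and 7. A fold change on log2(TPM + 1) understates the change of low genes. Positions were compared by permuting classes within embryos (100000 draws, exact for embryo 1 alone). The fits were tested on simulated data.

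Members, the 34 gene lists and the panel of 25 developmental genes were chosen with earlier results of these data known. Named genes are the 15 largest called differences in each direction with a mean of at least 5 TPM and the same sign in both embryos, up to 4 called members in each direction of each list, and the panel; others that a sentence names among a list's members are given for that list. Alternatives were a pseudocount of 0.1, no filter or a strict one (5 TPM in 10 or more regions), normalization by quantiles, rescaling without mitochondrial and rule genes, section or no block, means per embryo and class, a correlation within sections estimated with statmod 1.5.0, genes detected as a covariate, other thresholds on m (6 and 3, or 4.25), the slope on m, and each embryo left out. Those added after seeing the data left out regions with APOA1 above 500 TPM or mesenchyme-rich regions with a mitochondrial share above 40%, or took that share as a covariate. Summaries used numpy 2.4.6 and pandas 2.3.3, and pictures matplotlib 3.10.9. Some members of the lists are not analysed or not reported here.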

Additional observations from a re-analysis of the deposited data

Results flagged for a closer look

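Values of single regions that stood far from the others of their class and embryo were found in 9 of 66 groups of 4 to 10 regions. A group was 1 measure in 1 class, and only the classes of embryo 1 (4 and 9 regions) had that size. Embryo 2, with classes of 12 and 23 regions, was not screened. Chance gives about 1 in 20 for a single group, but these groups share the same regions and are not independent. The measures also included m, which made the classes, and genes chosen for large class differences. The 9 of 66 is therefore not to be read against that rate. The gap of each to its nearest neighbour, divided by the range of its group, passed the 95% critical value of Dixon's test.

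Of these values 4 belonged to embryo 1 section 3 sector 5, the mesenchyme-rich region of embryo 1 with the lowest m (5.7844 against 8.42 to 8.59 in the other 3). On the log2(TPM + 1) scale SULT1C4 was lowest there (2.2334), and LHX1 (6.4771) and FOXA2 (5.2766) were highest, in a class in which both had fallen. The value of m, which made the classes, is among these 4, and SULT1C4 and LHX1 were chosen for their large class differences. These flags are therefore not independent evidence that section 3 sector 5 is unusual. This region also had APOA1 at 4606 TPM and CGA at 1683 TPM. MIR675 was 0.0 in section 3 sector 1, and above 0 in the other 3 mesenchyme-rich regions of embryo 1.

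Among low-matrix regions of embryo 1, section 2 sector 3 was highest for HAND2 (4.0098) and CT55 (1.7834), and it had the second highest m of that group (2.57). Section 3 sector 3 had the highest mitochondrial share (40.6297%) and the lowest VRTN (1.4418).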

How the results depend on the processing

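No paired analysis was possible because region numbers shared between embryos name positions and pair no samples across groups. Comparing classes within sections, with section within embryo as a block, gave 2037 higher and 2818 lower genes. The 30 genes of largest difference kept their calls under every alternative run except embryo 1 alone, where 12 did, and this setting has 13 regions. They were chosen as the largest called differences in these same regions, so kept calls give no independent support. Counts stayed within 1.5 times of 2167 higher and 3104 lower genes except with embryo means (1180 higher, 1341 lower, 2521 in all), which leave 4 values per gene, and without mesenchyme-rich regions of a mitochondrial share above 40% (1598 lower). Leaving out each embryo gave 249 to 1945 higher, 88 to 2752 lower and 337 to 4697 called genes. The position difference was then -0.0278 to 0.5103 for sector and -0.0913 to 0.0278 for section. Genes differing between embryos numbered 107 after quantile normalization, against 60, and the cause was not tested.

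Among named genes ALDH1A2, GATA6, VTCN1 and HK2 changed sign. ALDH1A2 (-0.19) was 0.3993 with embryo means, 0.0279 as a slope on m, 0.0493 without the regions of high mitochondrial share and 1.6266 or -0.8281 with embryo 2 or 1 left out. With each embryo left out GATA6 ran from -0.3353 to 1.6495, VTCN1 from -0.0112 to 2.1513 and HK2 from -1.1639 to 0.2429, and the cause was not tested. Of 170 named genes that were called, 36 kept the call in embryo 1 alone, 132 lost it with the same sign and 2 changed sign. The call was lost by 23 without the mesenchyme-rich regions of high mitochondrial share, 19 with embryo means and 0 to 7 under the others.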

Other observations

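Some genes outside the naming rule, looked at after their values were seen, differed between the embryos in the limma test of that difference. OIT3 was 8.79 to 66.2 TPM in the 12 mesenchyme-rich regions of embryo 2 and 0 to 0.092 TPM in the 4 of embryo 1, with differences of 3.59 and -0.04 on the log2 scale (interaction adjusted p = 2.14e-05). IFI27, an interferon-induced gene, was 132 to 626 TPM in mesenchyme-rich regions of embryo 1 and 9.12 to 113 TPM in those of embryo 2 (6.86 and 2.58, adjusted p = 0.00366).

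Secreted proteases and acute-phase genes were high in single regions of embryo 1. KLK3, a kallikrein whose near copies may share reads, was 1611 TPM in section 1 sector 1 and 689 TPM in section 3 sector 5, and 0 to 4.36 TPM in the mesenchyme-rich regions of embryo 2. GZMB, granzyme B of cytotoxic lymphocytes, was 1219 TPM in section 3 sector 5 and at most 41.1 TPM in every other mesenchyme-rich region, and NKG7, another gene of these cells, was 387 TPM in the same region. SERPINA3 was 907 TPM in section 1 sector 1 and 258 TPM in section 3 sector 5.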
